A study of Mus musculus with 6 samples.

Results

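Alternative last exons are the different 3′ terminal exons that transcripts of 1 locus can end in. Last exons were examined in hippocampal RNA of male C57BL/6 mice aged 14 months. A last exon counted as a member when its locus carried a gene identifier, its own mean over the 6 libraries was at least 0.5 FPKM, at least 1 other last exon of the locus also reached that mean, and the last exons of the locus summed to a mean of at least 2 FPKM. FPKM are fragments per kilobase and per M (mega) fragments. The sources used here do not say whether the length is that of the last exon or of whole transcripts. This gave 1268 last exons in 564 loci, out of 50456 last exons in 38186 loci. The members were thus selected on their mean level over both groups, and those levels are given as a description. The 3 DHT libraries came from mice injected under the skin once a day for 14 days with dihydrotestosterone (DHT), an androgen that aromatase does not turn into oestrogen. The sample descriptions also call these mice the testosterone group. The 3 oil libraries came from mice of the same strain, sex and age given medical corn oil on the same schedule. The labels describe the animals as representative mice, and the sample titles carry a different number for each library. They do not state whether a library is 1 animal or a pool, so p-values measure only the spread between these libraries.

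The 3′ end of a messenger RNA is made when the cleavage and polyadenylation machinery cuts the nascent transcript downstream of a poly(A) signal and adds a tail. If a gene has a usable signal inside an intron, or a choice of terminal exons, its transcripts can end early or late, and the protein's C-terminus and the 3′ untranslated region change together. Neurons are known for long transcripts with distal ends, and for genes that use an early last exon to make a shortened or secreted protein. In what follows, the 2 last exons of a locus with the highest means are its leading last exons. The proximal one of these ends nearer to the start of the gene, or, where both share a 3′ end, begins nearer to it, and the other is the distal one. The share of a last exon is its FPKM as a percent of all last exons of its locus in that library.

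The sequences that tell 2 last exons of a locus apart could be read for a few members. Shown first are 30 bases at or near the 3′ end of 2 members, as printed in RefSeq (GRCm38.p6), with the poly(A) signal in capitals. Of 9 member 3′ ends that fell inside a RefSeq promoter window, these 2 held AATAAA or ATTAAA in their last 40 bases on the transcribed strand, the strand searched. Either motif was present in the first 40 bases of 3.17% of all 32851 promoter windows. The 9 ends need not lie at that edge of their windows, so this is not a background rate for them. The motifs differ at 1 letter and were counted together, and a match is a description of letters, not a mapped cleavage site.
Camta2 proximal last exon, chr11:70669463-70669492, minus strand: gaattgccATTAAAcgtctctgcaccagct
Rsph6a distal last exon, chr7:19054578-19054607, plus strand: aacacaAATAAAagagggcgtagctgcgcc

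Camta2 encodes a calmodulin-binding transcription activator of brain and heart. In the locus with that name, the signal ended 16 bases before the 3′ end of the proximal last exon, inside the promoter window of Spag7. That proximal last exon took 72.9%, 64.3% and 65.9% of the locus in the DHT libraries and 64.8%, 70.0% and 68.4% in the oil libraries, so the groups overlapped. Rsph6a encodes a radial spoke head protein of cilia and flagella. In the locus with that name, the signal ended 28 bases before the 3′ end, and the stretch shown stops 10 bases short of that end. The stretch lies in the promoter window of Rsph6a itself, so this distal last exon ends near the annotated start of that gene. It took 86.3%, 82.5% and 81.0% in DHT and 73.7%, 86.4% and 69.5% in oil, again with overlap. In both loci, at least 1 leading last exon lies outside the bounds of the RefSeq gene that names the locus, so neighbouring genes may be joined in them.

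Mature miRNAs lay inside 4 member last exons, in each case in the proximal leading one and in no other member of the locus, so that a transcript with the other leading last exon does not end in them. They are shown 5′ to 3′ from RefSeq (GRCm38.p6) with the seed, bases 2 to 8, in capitals, and no seed is shared among them.
mmu-miR-6935-3p in Actg1: uGUUCUUUgucuuuccacag
mmu-miR-7068-5p in Cherp: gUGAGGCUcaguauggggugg
mmu-miR-7068-3p in Cherp: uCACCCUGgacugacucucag
mmu-miR-7657-5p in Fnbp1l: aAUAGUUGgauaguuagguaa
mmu-miR-7657-3p in Fnbp1l: uUCCUUGCuauucccaacuuggu
mmu-miR-7658-5p in the locus named Mir7658: uGUGGGCGuggcggugcugg
mmu-miR-7658-3p in the locus named Mir7658: aCCACCUUccucacccacgcu

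The last exons that hold these miRNAs differed widely in share. In Actg1, which encodes cytoplasmic gamma-actin, it took 2.23%, 1.54% and 2.72% of the locus in DHT and 3.401%, 1.65% and 1.54% in oil. In Cherp, which encodes a regulator of calcium release and splicing, it took 19.9%, 23.4% and 11.6% in DHT and 20.7%, 11.1% and 17.7% in oil. In Fnbp1l, which encodes a protein that links membrane curvature to actin, the miRNAs lie in the longer of 2 last exons with a common 3′ end, which took 93.4%, 89.1% and 81.6% in DHT and 97.6%, 91.7% and 86.6% in oil. The Mir7658 locus was the one of these 4 whose shares did not overlap, with 76.0%, 82.5% and 81.0% in DHT against 85.6%, 84.7% and 88.9% in oil. Its usage change, defined with the comparison of groups further on, did not pass the test (limma, adjusted p = 0.92). Small RNA was not measured in these libraries, so the shares concern the long transcripts.

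Each library had 143 to 177 M (mega) mapped reads. FPKM carry no read numbers for an exon, so the depth behind a share is unknown and no counting interval can be given. All last exons together summed to 58644 to 59594 FPKM in the DHT libraries and 53367 to 55037 in the oil libraries, and 114 to 127 members were listed at 0 in a library. An exact 0 in such files can be a failed estimate. A share is taken within a locus and a library, so the total of a library cancels in it. The tissue label was checked in the same table: of 12 hippocampal marker genes, 7 had summed last exons under 0.5 FPKM on average, among them Prox1 and Zbtb20. Of 9 striatal marker genes, 4 were that low, while Penk had 75.2 to 151 FPKM and Ppp1r1b 45.9 to 95.8 FPKM over the 6 libraries. The last-exon table does not hold every gene's end, so a low value there does not show that a gene is silent. Of 4 markers of red blood cells 3 were listed, and they summed to 96.0 to 639 FPKM in DHT and 66.5 to 124 in oil, which overlap. Of these only Hba-a2 had groups apart, with 42.8 to 258 FPKM in DHT and listed zeros in the 3 oil libraries (limma, adjusted p = 0.0648). The part of blood in the results below was not tested. In bulk tissue, fewer cells of a type and less RNA per cell cannot be told apart.

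Most loci had a simple choice. There were 455 loci with 2 member last exons, 92 with 3 and 17 with at least 4. The 2 leading last exons were separate, with different 3′ ends and no shared bases, in 417 loci (73.9%). They had the same 3′ end and different starts in 111 loci (19.7%), and overlapped in part in the other 36 (6.38%). No 2 last exons of a locus shared their inner boundary, so a choice between poly(A) sites inside 1 terminal exon is not resolved in these values. In the separate loci the 3′ ends were a median of 8980 bases apart (quartiles 3571 and 27012), and the proximal last exon was shorter than the distal one, with median lengths of 521 and 1152 bases. In 9 of the loci with a common 3′ end the 2 exons began within 10 bases of each other. Camk2n2 is one of these.

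The distal last exon was usually the stronger one. It led in 379 of the 564 loci (67.2%), and in 308 of the 417 separate loci (73.9%). The leading share, averaged over the libraries, had a median of 75.8%. It was over 90% in 92 loci and under 60% in 125. The same last exon led in all 6 libraries in 323 loci (57.3%), so in the other loci at least 1 library had another leader or no last exon above 0. At the thresholds of membership, the last exon just inside had a mean of 0.5001 FPKM (Zfp942) and the one just outside 0.499 FPKM (Gm43682). The locus just inside had a summed mean of 2.01 FPKM (Gm47469) and the one just outside 1.99 FPKM (Aspa).

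**Figure D1:**
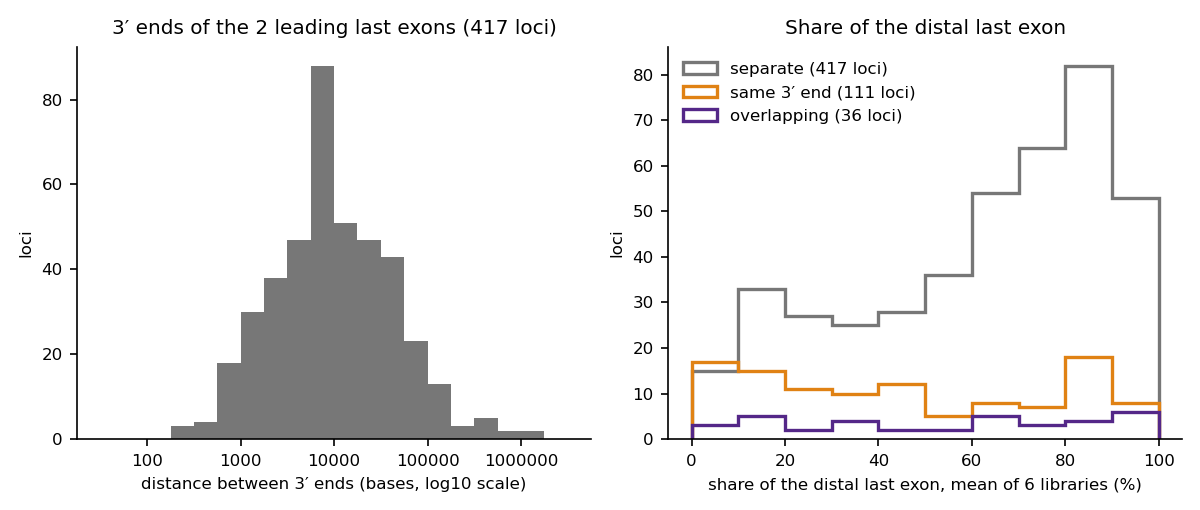
Left, number of loci (y axis) by the distance in bases between the 3′ ends of the 2 leading last exons (x axis, log10 scale), for the 417 separate loci. Right, number of loci by the share of the distal last exon in percent (mean of 6 libraries), with 1 line for each of the 3 layouts; separate loci pile up at high distal shares, while loci with a common 3′ end are spread over the whole range.

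Where the ends lie was compared with RefSeq gene bounds (GRCm38.p6), which matched 546 loci by symbol, 533 of them protein-coding genes. Both leading last exons overlapped the named gene in 471 loci (86.3% of those matched). Both lay within its bounds or 1000 bases of them in 412 (75.5%). In 31 loci a leading last exon overlapped only another protein-coding gene of the same strand, and in 44 neither. Such a locus may join 2 genes. Of 294 separate loci that lay within the gene or 1000 bases of it, the distal last exon ended within 50 bases of the annotated gene end in 177 (60.2%), and the proximal one in 0. All 294 proximal last exons ended inside the gene bounds, which the choice of these loci by position largely fixed in advance. Of the 546 matched loci, 7 carry the identifier of a small RNA or gene segment that lies inside them, such as Mir7658.

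Circular RNAs, rings made by back-splicing, were listed from the genes of 229 member loci (40.6%), against 31.1% of the other 4690 loci with an identifier and at least 2 FPKM of last exons. Of 188 separate loci with a listed circle, 134 had 1 that lay wholly upstream of the proximal last exon and 59 had 1 wholly downstream of it. Nf1, described below, gave 10, 6 and 10 back-splice reads in the DHT libraries and 21, 15 and 16 in the oil libraries. Grm5, which encodes a metabotropic glutamate receptor, gave 59, 65 and 40 in DHT and 65, 67 and 54 in oil. These are raw reads of 2 of the 229 loci, not scaled to depth, and a difference in circles between the groups was not tested.

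DHT and oil libraries were then compared for each last exon. The usage change is the difference, DHT minus oil, in the log2 ratio of a last exon (FPKM + 0.5) to all other last exons of its locus (FPKM + 0.5). It was fitted with limma for 4489 last exons of 1807 loci with lower limits than those of membership. No usage change passed an adjusted p of 0.05, whether among all last exons (0 of 4489, 0%) or among the 1268 members, where the smallest adjusted p was 0.232. At an unadjusted p under 0.05 there were 72 members (5.68%) in 48 loci, 34 with a higher and 38 with a lower share in DHT. Over all last exons fitted that share was 4.59%, so the members stood near the background. Shares did not overlap between the groups for 129 members (10.2%) in 78 loci, against 8.47% of all last exons fitted. In a locus with 2 last exons the pair are mirror images and count as 1 choice.

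The members as a body leaned neither to early nor to late ends. The distal of the 2 leading last exons had a higher mean share in DHT in 282 loci and a lower one in 279. The median difference was 0.0579 percentage points, and the median size of a difference, whatever its sign, was 6.81 points. The SD among the 3 libraries of a group had a median of 9.19 points in DHT and 8.75 points in oil. A typical difference between group means was thus below the SD of single libraries, which is not the error of such a difference. Library by library, the median distal share was 64.3%, 67.5% and 65.6% in DHT and 66.3%, 66.4% and 64.5% in oil. In 43 loci the distal share differed by over 30 points, and in 12 of these the groups did not overlap. The distal share did not overlap in 46 of 417 separate loci (11.03%), in 12 of 111 with a common 3′ end (10.8%) and in 4 of 36 overlapping ones (11.1%), so the layouts gave like shares.

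**Figure D2:**
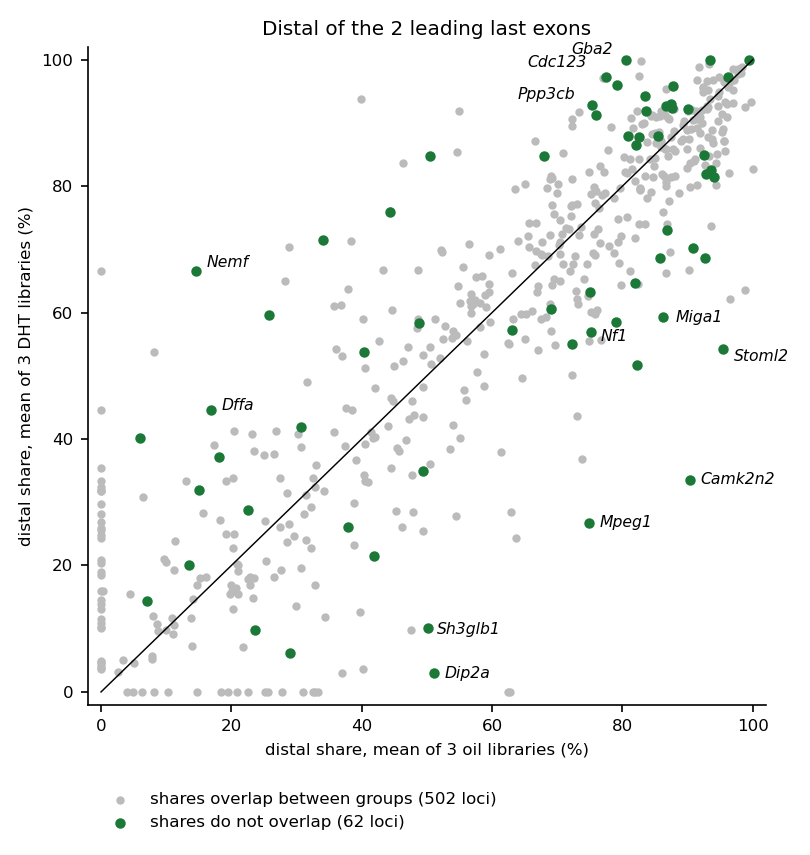
Each point is 1 of 564 loci, placed by the mean share in percent of its distal leading last exon in the 3 oil libraries (x axis) and in the 3 DHT libraries (y axis), with the line of equal shares. Green points are the 62 loci whose shares do not overlap between the groups, 35 with a higher and 27 with a lower share in DHT, and named points are loci described in the text.

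The level of a single last exon was tested too, as log2(FPKM + 0.5), for all 8752 last exons with a mean of at least 0.5 FPKM. With limma, 4 passed an adjusted p of 0.05 (0.0457%), of which 1 was a member, the distal last exon of Sh3glb1. Among the members, 69 had a higher level in DHT at an unadjusted p under 0.05 and 36 a lower one. These are 5.44% and 2.84% of the members, while 6.2% of all last exons were higher and 1.39% lower by that rule. The balance depended on scaling: with each library centred on its median, 51 members were higher and 46 lower, and over all last exons 543 higher and 122 lower became 323 and 199. Levels as deposited leaned towards DHT: 62.9% of the 8752 were higher in DHT, and 52.8% after centring. For the summed last exons of a gene, 0 of 8154 genes passed (0%). At an unadjusted p under 0.05, 41 of the 564 member loci had a higher sum in DHT and 8 a lower one, beside 6.38% and 1.31% of all genes. After centring, 31 of the member loci were higher and 19 lower, and over all genes 520 higher and 107 lower became 304 and 184. The leading last exons of the 78 loci whose shares did not overlap had levels that differed in opposite directions in 53 loci, that were both higher in DHT in 14 and both lower in 11. Over all 564 member loci the directions were opposite in 334 (59.2%, against 67.9% of the 78), both higher in 164 and both lower in 66. A lack of overlap in shares itself favours opposite levels.

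Named below are the 10 loci in each direction with the smallest unadjusted p among those whose shares did not overlap. Lack of overlap is therefore how they were chosen, and none passed the adjusted test of usage. The direction is that of the usage change of the distal leading last exon. In some loci that change was small, as in Gm20713 (-0.02) and Ptpn23 (0.10), and another last exon placed the locus here. All coordinates are GRCm38, and the leading last exons overlap the bounds of the named gene except where stated.

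In the autophagy and membrane group, Sh3glb1 had the clearest values. It encodes endophilin B1, which bends membranes and takes part in autophagy and in apoptosis through Bax. The proximal last exon (chr3:144686911-144691532, minus strand) and the distal one (chr3:144683678-144685139) have 3′ ends 3233 bases apart. The distal last exon took 9.48%, 14.3% and 6.70% of the locus in the DHT libraries and 49.95%, 51.0% and 49.6% in the oil libraries. All oil libraries thus split evenly between the 2 last exons, while the proximal one dominated in all DHT libraries. The means were 10.2% ± 3.84 (SD, n = 3) in DHT and 50.2% ± 0.697 (SD, n = 3) in oil. The usage change of the distal last exon was -2.54 ± 0.37 (SE) on the log2 scale (limma, adjusted p = 0.232).

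The level of the distal last exon of Sh3glb1 was 0.765, 0.812 and 0.528 FPKM in DHT and 3.22, 3.88 and 3.53 FPKM in oil. It fell by 1.76 on the log2(FPKM + 0.5) scale, with an SE of 0.14 (limma, adjusted p = 0.0478). That call was lost under all 11 alternatives, with adjusted p from 0.0587 to 0.227, among them the removal of each single library, while the change stayed between -2.20 and -1.42. The proximal last exon stood at 7.30, 4.87 and 7.34 FPKM in DHT and 3.23, 3.73 and 3.58 FPKM in oil, and did not pass. The last exons of the locus summed to 8.07, 5.68 and 7.87 FPKM in DHT and 6.45, 7.62 and 7.11 FPKM in oil, so the sums overlapped.

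Gba2 encodes the non-lysosomal glucosylceramidase, which cleaves glucosylceramide outside lysosomes. Its proximal last exon (chr4:43570762-43570911, minus strand, 150 bases) was at 0.00357, 0 and 0 FPKM in the DHT libraries and at 1.36, 0.936 and 1.10 FPKM in the oil libraries. It was at or near 0 in all DHT libraries and present in all oil libraries. The distal last exon (chr4:43566928-43567467), which ends 3834 bases further on, took 99.9%, 99.95% and 99.9% in DHT and 85.1%, 77.2% and 79.3% in oil. Its usage change was 2.32 ± 0.34 (SE; limma, adjusted p = 0.232).

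Of 17 member loci of autophagy, lysosomes and vesicle sorting, 3 (17.6%) had a last exon whose shares did not overlap: Gba2, Lamp2 and Sh3glb1. Over all member loci that was 13.8%. This group and those that follow were drawn up from the members after the loci were known, so their counts are a description. Lamp2 encodes a lysosomal membrane protein known for alternative last exons that give its A, B and C forms. Its distal last exon took 28.7%, 28.4% and 29.3% in DHT and 23.9%, 27.2% and 16.6% in oil, a small difference beside the spread in oil (limma, adjusted p = 0.91).

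Among genes of growth and stress signalling, Nf1 had the largest usage change of the 20 named loci. It encodes neurofibromin, which switches off Ras. Its proximal last exon (chr11:79458771-79458906, plus strand, 136 bases) ends 123183 bases before its distal one (chr11:79578254-79582089). The proximal last exon took 33.2%, 23.3% and 38.6% in DHT and 4.09%, 0.0361% and 0.00207% in oil. Its level was 7.46, 6.19 and 10.6 FPKM in DHT and 0.748, 0.00609 and 0.000272 FPKM in oil, so the lowest DHT library lay far above the highest oil library, and 2 oil libraries were near 0. The usage change was 3.49 ± 0.47 (SE; limma, adjusted p = 0.232). The distal last exon had 11.5, 16.4 and 15.8 FPKM in DHT and 13.4, 12.9 and 9.95 FPKM in oil, which overlap. Its lower share in DHT (51.1%, 61.9% and 57.6% against 73.2%, 76.2% and 75.9%) thus went with more of the proximal last exon and not with less of the distal one.

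Mapk9, which encodes the stress kinase JNK2, was named for a further member (chr11:49874264-49875626). It took 0.0735%, 2.75% and 0.769% in DHT and 5.32%, 13.8% and 5.38% in oil. Its 2 leading last exons start 5 bases apart and share their end, and the stronger took 86.8%, 86.8% and 85.9% in DHT and 85.8%, 79.0% and 81.5% in oil. Ip6k2, which encodes an inositol hexakisphosphate kinase, was also named for a further member (chr9:108797207-108797989). Its share was 19.0%, 12.9% and 17.4% in DHT and 8.61%, 4.09% and 3.92% in oil.

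In the synaptic and calcium signalling group, Ppp3cb and Camk2n2 had the smallest p-values. Ppp3cb encodes a catalytic subunit of calcineurin, the calcium-dependent phosphatase of synaptic depression. In DHT the proximal last exon (chr14:20507671-20508721, minus strand) took 1.35%, 1.91% and 5.42%, and in oil 26.5%, 22.4% and 17.9%. In FPKM this was 0.309, 0.400 and 0.949 against 4.49, 5.44 and 3.69. The distal last exon (chr14:20499364-20501662) held 19.6, 20.6 and 16.6 FPKM in DHT and 12.5, 18.8 and 15.5 FPKM in oil, with overlap. The usage change of the proximal last exon was -2.60 ± 0.45 (SE; limma, adjusted p = 0.314).

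Camk2n2 encodes an inhibitor of the kinase CaMKII. Its 2 last exons share a 3′ end and begin 6 bases apart (chr16:20619215-20619939 and chr16:20619215-20619933, minus strand), so the values compare 2 acceptor sites and not 2 ends. The longer one took 54.0%, 75.2% and 70.3% in DHT and 0%, 29.0% and 0% in oil, where it was listed at 0 in 2 of 3 libraries. The usage change was 2.74 ± 0.66 (SE; limma, adjusted p = 0.626).

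Of 40 member loci of synapses and neuronal signalling, 7 (17.5%) had a last exon without overlap, and the distal share was higher in 20 and lower in 18. Gria2 encodes the AMPA receptor subunit that sets calcium permeability. Its early last exon (chr3:80704639-80707905) took 3.61%, 19.0% and 4.43% in DHT and 2.14%, 2.16% and 1.62% in oil (limma, adjusted p = 0.91). DHT library 2 stood far above the other libraries. Ppfia4, which encodes a liprin of the presynaptic active zone, had a distal share of 88.0%, 100% and 100% in DHT and 69.1%, 81.4% and 87.1% in oil, so DHT library 1 lay just above the highest oil library. Ncam2, which encodes a neural cell adhesion molecule, had a distal share of 67.2%, 89.5% and 88.9% in DHT and 94.5%, 90.2% and 93.6% in oil.

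For motors and the cytoskeleton, Kif5a shows how small a difference can be and still have groups apart. It encodes a kinesin heavy chain of axonal transport and was among the 5 member loci with the highest last-exon sums. The proximal last exon (chr10:127229050-127229856, minus strand) was at 0.0610, 0.0476 and 0.0502 FPKM in DHT and 0.601, 1.44 and 0.890 FPKM in oil. The distal one held 133 to 180 FPKM, and its share was at least 99.1% in each of the 6 libraries. The usage change was 1.37 ± 0.32 (SE; limma, adjusted p = 0.626). Of 23 loci in the group, 2 (8.70%) had shares without overlap: Kif5a and Mical2, which encodes an enzyme that takes actin filaments apart by oxidation.

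The mitochondria and energy group held 26 member loci, of which 9 (34.6%) had a last exon without overlap, beside 13.8% of all member loci. The 9 were Ak3, Aldh5a1, Ldha, Miga1, Mrpl39, Nfs1, Polg, Slc25a23 and Stoml2. They did not share a direction: for instance, the distal share was higher in DHT in Ak3 and Ldha and lower in Miga1, Nfs1 and Stoml2. Over the 26 loci of the group it was higher in 10 and lower in 16. An unadjusted p under 0.05 was found for a member of 4 of the 26 (15.4%), beside 48 of all 564 loci (8.51%). Miga1 encodes mitoguardin 1, which acts in mitochondrial fusion. Its proximal last exon (chr3:152281577-152283835, minus strand) was at 2.70, 3.05 and 2.77 FPKM in DHT and at 0.00528, 1.47 and 0.000702 FPKM in oil. The distal last exon (chr3:152273849-152276853) took 60.002%, 58.4% and 59.3% in DHT and 85.5%, 81.0% and 91.9% in oil, a tight DHT group beneath a wider oil group (usage change -1.80 ± 0.38 SE; limma, adjusted p = 0.44).

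Stoml2 encodes a stomatin-like protein of the inner mitochondrial membrane. A proximal last exon of 41 bases (chr4:43029597-43029637, minus strand) took 59.97%, 40.6% and 36.7% in DHT and 0.694%, 11.9% and 0.993% in oil. The usage change was 2.58 ± 0.49 (SE; limma, adjusted p = 0.339), and the distal last exon also overlaps the bounds of Pigo. Nfs1, which encodes the cysteine desulfurase that supplies sulphur to iron-sulphur clusters, had a proximal share of 28.7%, 20.4% and 26.8% in DHT and 7.18%, 10.2% and 0.975% in oil (chr2:156138507-156139812). In Ak3, the mitochondrial GTP:AMP phosphotransferase, the distal share was 88.8%, 87.1% and 88.0% in DHT and 85.2%, 85.9% and 85.4% in oil. That is a difference of a few points with little spread. Ldha, a subunit of lactate dehydrogenase, ranged far more widely, with a distal share of 20.3%, 87.4% and 12.6% in DHT and 10.02%, 7.73% and 0% in oil.

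In RNA processing and translation, Nemf, Cdc123 and Smg1 were named. Nemf encodes a factor of ribosome quality control that tags stalled peptides. Its distal last exon (chr12:69310522-69312080, minus strand) took 65.8%, 66.1% and 67.7% in DHT and 22.3%, 12.3% and 9.21% in oil. The proximal one (chr12:69341002-69341076) ends 30480 bases earlier and led in 3 of 3 oil libraries. The last exons of the locus summed to 1.93, 6.09 and 0.86 FPKM in DHT and 3.02, 3.35 and 4.003 FPKM in oil, so the DHT sum itself varied. The usage change of the distal last exon was 2.45 ± 0.39 (SE; limma, adjusted p = 0.258).

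Cdc123 encodes a chaperone for the assembly of the translation factor eIF2. Its proximal last exon (chr2:5798361-5798489, minus strand) was the single member listed at 0 in all DHT libraries and above 0 in all oil libraries, where it had 2.58, 2.83 and 1.01 FPKM. The distal one (chr2:5794294-5794880) had 9.48, 8.84 and 9.68 FPKM in DHT and 8.996, 7.501 and 8.90 FPKM in oil, which overlap. The usage change of the proximal last exon was -2.44 ± 0.44 (SE; limma, adjusted p = 0.336). The opposite pattern, 0 in all oil and above 0 in all DHT libraries, was also found for 1 member. It was a minor last exon of Clcn2, a chloride channel gene, at 1.03, 0.0313 and 2.31 FPKM in DHT.

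Smg1 encodes the kinase that phosphorylates UPF1 in nonsense-mediated decay. Its proximal last exon (chr7:118200696-118200758) took 8.53%, 24.4% and 0.0492% in DHT and 52.7%, 41.7% and 41.6% in oil (limma, adjusted p = 0.805). Its distal last exon was listed at 0 in DHT library 3 and in oil library 1. Of 50 member loci of RNA processing, 5 (10%) had shares without overlap: Cdc40, Smg1, Son, Supt5 and Tardbp. The distal share was higher in DHT in 25 of the 50 and lower in 25. Supt5, which encodes a factor of RNA polymerase II elongation, had a proximal share of 9.02%, 16.1% and 1.003% in DHT and 21.9%, 27.6% and 23.0% in oil. In Tardbp, which encodes the RNA-binding protein TDP-43, the member without overlap (chr4:148617554-148617635) was under 0.0001 FPKM in all DHT libraries. In oil it was at 0.00112, 1.95 and 2.09 FPKM, so its range rested on 2 libraries.

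**Figure D3:**
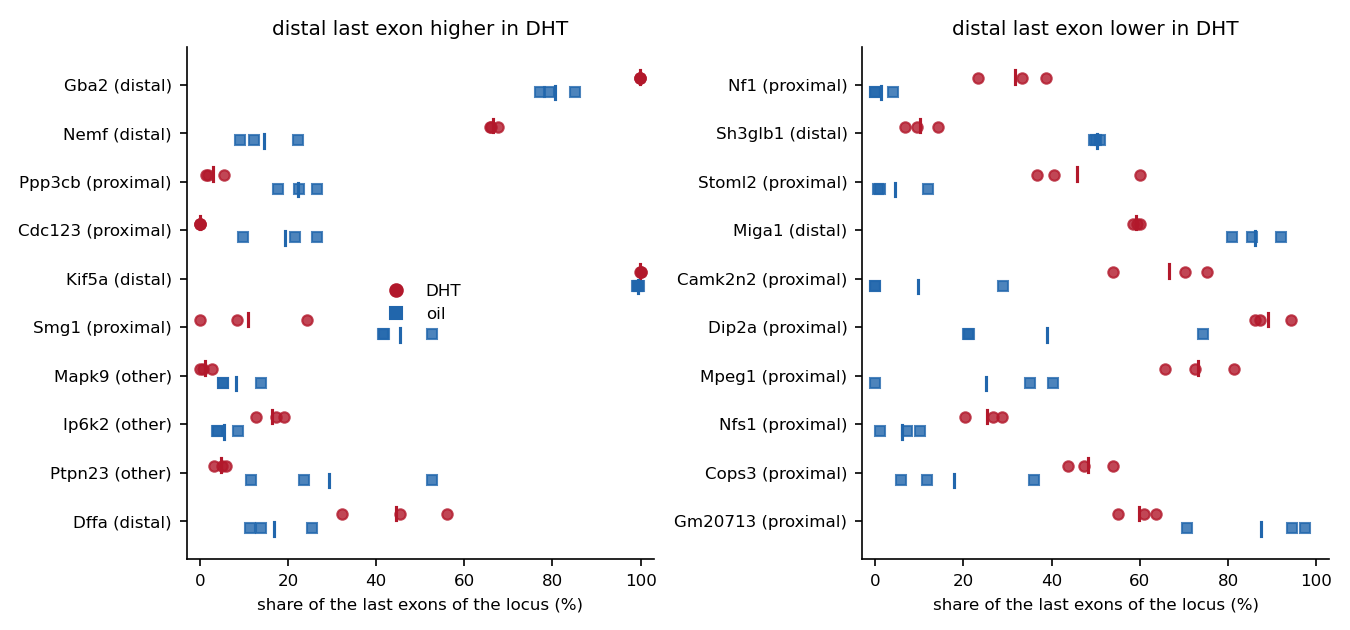
Share of a last exon in percent of its locus (x axis) in each library, for the 10 loci per direction named by the rule, with the last exon that had the smallest p given in brackets. Circles are DHT libraries, squares oil libraries and vertical lines group means; Sh3glb1 and Nemf have tight and distant groups, while Dip2a, Ptpn23 and Mpeg1 have wide oil groups.

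**Figure D4:**
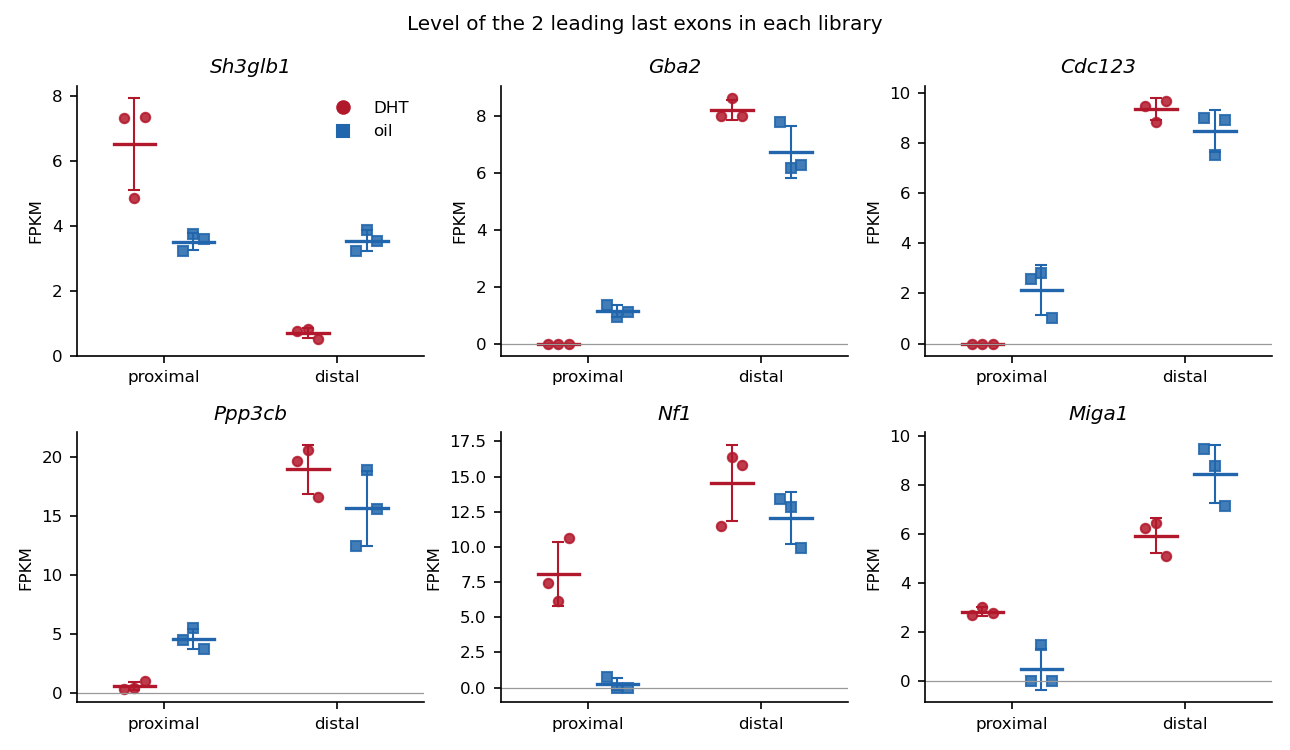
FPKM (y axis) of the proximal and distal leading last exons of 6 loci in each library, with the mean and SD of 3 libraries per group. In Cdc123, Ppp3cb and Nf1 the proximal levels of the groups lie apart while the distal levels overlap, whereas in Sh3glb1, Gba2 and Miga1 the levels of both last exons lie apart.

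The other named loci come from several functions. Dip2a, which encodes a disco-interacting protein of neurons, had a proximal share of 94.2%, 86.2% and 87.2% in DHT and 21.1%, 21.3% and 74.3% in oil. Its distal last exon lies within neither the bounds of Dip2a nor those of another protein-coding gene of its strand, and it was listed at 0 in 2 DHT libraries. Cops3, a subunit of the COP9 signalosome, had a proximal share of 47.3%, 43.6% and 53.9% in DHT and 35.9%, 5.75% and 11.6% in oil. Dffa, the inhibitor of the caspase-activated DNase, had a distal share of 45.3%, 32.2% and 56.1% in DHT and 25.4%, 13.8% and 11.5% in oil. Ptpn23, a phosphatase-like protein of endosomal sorting, was named for a further member that took 5.98%, 5.08% and 3.29% in DHT and 23.7%, 52.7% and 11.6% in oil. The locus named Gm20713 has leading last exons that overlap Gpc5, a glypican gene, and not Gm20713. Its proximal share was 55.1%, 61.0% and 63.7% in DHT and 70.7%, 97.4% and 94.5% in oil. The mean distal share of Gm20713 was 10.7% in DHT and 8.65% in oil, although its distal usage change was -0.02. For these 5 loci the adjusted p was 0.852 or more (limma).

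Mpeg1 encodes perforin-2, a pore-forming protein of macrophages and microglia. Its 2 last exons share a 3′ end and begin 118 bases apart, and the longer one took 65.7%, 81.4% and 72.6% in DHT and 0%, 35.0% and 40.4% in oil (limma, adjusted p = 0.913). Microglial markers stood lower in DHT: the 5 summed to 15.6 to 20.2 FPKM in the DHT libraries and 20.7 to 22.4 FPKM in the oil libraries, with Cx3cr1 and Tmem119 under 0.5 FPKM on average. The summed last exons of Mpeg1 were 2.73, 5.27 and 3.95 FPKM in DHT and 3.52, 3.30 and 4.501 FPKM in oil, which overlap. The part of the microglial markers in the Mpeg1 shares was not tested.

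In 58 loci the last exon with the higher mean share was not the same in DHT and oil. In 13 of these some shares did not overlap, among them Amigo1, Brd7, Camk2n2, Dffa, Dip2a, Eed, Mpeg1, Nemf, Nrn1l, Pbrm1, Sh3glb1 and Smg1. Over all 564 member loci there were 78 without overlap (13.8%), and a difference in leader itself favours shares that lie apart. Brd7, Eed and Pbrm1 encode parts of chromatin complexes. In Pbrm1, of the PBAF remodeller, the distal last exon took 100%, 51.8% and 62.5% in DHT and 28.4%, 33.7% and 40.02% in oil. In Brd7, also of PBAF, the shorter of 2 last exons with a common end took 62.4%, 55.3% and 43.5% in DHT and 40.3%, 39.2% and 41.8% in oil. In Eed, of the Polycomb repressive complex, a distal leading last exon took 35.1%, 41.1% and 49.7% in DHT and 30.6%, 28.6% and 32.6% in oil. All 3 had an adjusted p of 0.91 (limma).

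Genes with well-known alternative last exons were looked up from a list of 51. Of these, 49 had a last exon in the table, 30 had exactly 1 of at least 0.5 FPKM and 15 had none. The members were 6: Atp2a2, Flt1, Grm5, Kif1b, Ncam1 and Ptprd. Flt1 encodes a VEGF receptor, and its proximal last exon (chr5:147635159-147639533, minus strand) lies 73555 bases before the distal end, where a truncated and soluble form is known to be made. The proximal share was 16.2%, 40.9% and 39.7% in DHT and 30.3%, 12.2% and 44.8% in oil. The groups overlapped fully (usage change 0.14 ± 0.63 SE; limma, adjusted p = 0.989). Endothelial markers, a list that holds Flt1 itself, summed to 8.26 to 9.14 FPKM in DHT and 6.97 to 10.1 FPKM in oil.

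Grm5 ended mainly in its distal last exon (chr7:88129981-88134907), with 96.2%, 92.8% and 97.7% in DHT and 84.7%, 99.4% and 92.8% in oil. Kif1b, which encodes a kinesin of synaptic vesicle and mitochondrial transport with a short and a long form, had a distal share of 94.6%, 96.1% and 96.4% in DHT and 97.5%, 99.2% and 80.4% in oil. Both genes were thus read mostly to their distal end in each library. Ncam1, a neural cell adhesion molecule, had 2 last exons with a common end, of which the shorter was above 0 in DHT library 2 alone, at 3.21 FPKM. Atp2a2, the calcium pump of the endoplasmic reticulum, had a distal share of 77.5%, 99.9% and 98.2% in DHT and 76.6%, 88.2% and 0.0762% in oil, so oil library 3 alone ended almost wholly in the proximal last exon. Ptprd, a receptor phosphatase of synapse formation, had a leading last exon at 3.15 FPKM in oil library 3 and at 0 in the other libraries.

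**Figure D5:**
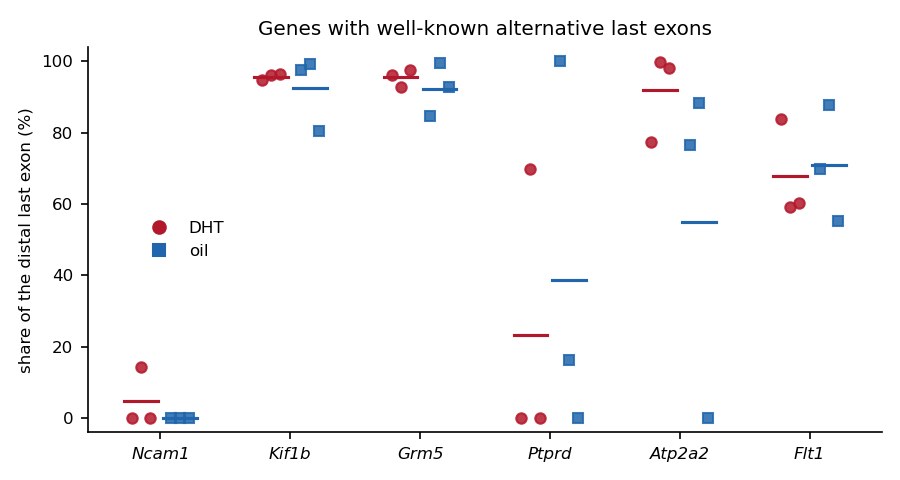
Share of the distal leading last exon in percent (y axis) of 6 genes known for alternative last exons, by library, with circles for DHT, squares for oil and horizontal lines for means of 3 libraries. The groups overlap in each gene, and Atp2a2 has 1 oil library at 0.0762% beside 2 at 76.6% and 88.2%.

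The strongest loci were Malat1, Calm2, Kif5a, Actg1 and Tuba1a, by summed last exons. Calm2, which encodes calmodulin, had a distal share of 98.6%, 99.3% and 98.8% in DHT and 98.9%, 76.9% and 99.2% in oil, so oil library 2 stood apart with 36.9 FPKM of its proximal last exon. Malat1, a nuclear noncoding RNA, had 6 member last exons with a common 3′ end. In 4 of the 6 libraries a single one of them took 100%: the one of 1161 bases in DHT library 1, of 2031 bases in DHT library 3 and oil library 2, and of 1170 bases in oil library 1. The locus named Tuba1a also had 6 members, its leading ones overlapping Tuba1b, a near-identical paralog, so shares there are uncertain. One of its last exons held 119 and 97.6 FPKM in DHT libraries 2 and 3 and was listed at 0 in the other libraries.

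Loci with many members showed the same pattern of library-specific ends. Of the 1268 members, 225 (17.7%) were listed at 0 in at least 1 library, and 77 were above 0 in 1 library alone. Srrm1, which encodes a splicing coactivator, had the most members, 7. Its most distal one, 20 bases long, had 7.82 FPKM in DHT library 3 and was at 0 elsewhere. Rprd2, which encodes a regulator of RNA polymerase II, had 6 members, and DHT libraries 1 and 2 had the same leading one while the other 4 libraries had 1 each of their own. Snph, which encodes syntaphilin, the anchor of axonal mitochondria, had 6 members, and its strongest took 87.1%, 90.6% and 84.4% in DHT and 83.2%, 45.0% and 86.7% in oil. Zeros were most frequent among weak members: 33.9% of those with a mean of 0.5 to 1 FPKM had one, against 7.14% of those with at least 10 FPKM. The share of members without overlap was 10.2% in the first of these classes and 9.09% in the second.

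The machinery that makes 3′ ends was looked at through the summed last exons of its genes. Of 25 cleavage and polyadenylation factors 15 could be tested, 9 higher and 6 lower in DHT, and 0 passed an adjusted p of 0.05 (limma). Their median change was 0.06 on the log2 scale beside 0.07 over all 8154 genes. By unadjusted p under 0.05 there was 1: Cstf3, a subunit of the cleavage stimulation factor, at 0, 0 and 0.233 FPKM in DHT and 0.321, 1.39 and 1.20 FPKM in oil. Of 29 RNA-binding proteins and U1 parts known to act on last-exon choice 19 could be tested, 16 higher and 3 lower, with a median of 0.17, and 0 passed. Over all 8154 genes 63.3% were higher in DHT, and 7.69% had an unadjusted p under 0.05. With libraries centred, 14 of the 19 were higher, beside 53.8% of all genes. By unadjusted p there were 2, of which Tardbp alone was left after centring. They were Tardbp, at 1.44, 4.96 and 6.55 FPKM in DHT and 8.23, 12.8 and 14.0 FPKM in oil, and Snrpa, a U1 protein, at 13.1, 11.5 and 12.1 FPKM in DHT and 10.03, 11.1 and 9.48 FPKM in oil. Cpsf1, Cpsf4, Scaf4, Snrnp70 and Tardbp of these lists are member loci themselves.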

How the data were processed

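The 6 libraries (3 DHT, 3 oil) were grouped by the treatment labels. FPKM values per first-exon, last-exon and splicing event were deposited by the authors, per the file headers, for 315379 events. Back-splice counts per circular RNA were deposited by the authors for circles with at least 2 reads. A deposited score, the same reads scaled per G (giga) of mapped reads as whole numbers, served only to work out mapped reads. The submitters' processing notes name HISAT2 2.0.1, BWA, cutadapt and bcl2fastq 2.17.1.14, with no step given for any of them, and the build mm9. Coordinates were treated as GRCm38, because both leading last exons of 86.3% of 546 matched loci overlapped the GRCm38 bounds of their gene. The way loci were assembled and FPKM computed was not given in the sources used here.

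From these, shares and sums were computed in Python 3.11.15 (pandas 2.3.3, numpy 2.4.6, matplotlib 3.10.9). Usage, level and sum were fitted with limma 3.58.1 (R 4.3.3, two-sided, empirical Bayes with a trend) on log2 values with a pseudocount of 0.5, for last exons with a mean of at least 0.1 FPKM (usage) or 0.5 FPKM (level and sum). The fit was tested on simulated data. Fold changes on that scale understate those of low exons. Adjusted p is Benjamini-Hochberg's over all features fitted, with a threshold of 0.05. The members and the lists were chosen with earlier results of these data known. The loci named are up to 10 per direction that passed the usage test, filled up with the smallest unadjusted p among loci without overlap; members of a list of 51 genes known for alternative last exons; and the 5 loci with the highest sum and the 5 with the most members. Lamp2, Gria2, Ldha and other loci of the role groups were named after their values were seen. Alternatives were other pseudocounts and filters, no trend, linear shares, centred libraries and leaving out each library. Such files do not separate overlapping genes or near-identical copies.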

Additional observations from a re-analysis of the deposited data

How the results depend on the processing

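Over the alternatives of the usage test, 0 last exons passed in each setting except without DHT replicate 1, where 1 did, a last exon of the Tuba1a locus (usage change 8.27, adjusted p = 0.0252); leaving out single libraries thus gave 0 to 1. For the level test, 4 passed as described, 1 with a pseudocount of 0.1, 0 with a pseudocount of 1, 1 without a trend, 0 with no filter on low values, 0 with libraries centred, and 0 to 3 when single libraries were left out. For the sum test, 0 passed as described, 1 with a pseudocount of 0.1, and 0 to 2 when single libraries were left out. The difference between groups in the median distal share was 0.0607 points over the libraries' medians, 2.29 points for members with a mean of at least 1 FPKM, and -0.769 to 0.809 points when single libraries were left out. The cause of these movements was not tested. At an unadjusted p under 0.05 there were 72 members in the usage test, 30 of 673 with members of at least 1 FPKM alone, 39 with linear shares, and 53 to 89 in the other settings. Some choices were made after seeing the data: leaving out last exons listed at 0 in any library (57 of 944), leaving out loci under 1 FPKM in any library (68) and leaving out DHT library 2 and oil library 3 together (89).

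Of 471 alternative values of the 33 named loci, 8 had the other sign, all in loci far from the threshold. The usage change of Actg1 was -0.13 without DHT replicate 2 and -0.23 without oil replicate 1, and ran from -0.23 to 0.23 over the libraries left out. That of Calm2 was -0.14 without oil replicate 2, in a range from -0.14 to 2.31. That of Flt1 was -0.12, -0.09 and -0.34 without DHT replicate 2, DHT replicate 3 and oil replicate 2, in a range from -0.34 to 0.62. That of Ncam1 was -0.12 without DHT replicate 2, in a range from -0.12 to 1.505, and -0.20 without DHT library 2 and oil library 3. No paired analysis was possible because the labels give the groups no shared replicate numbers: the numbers used here follow the order of the samples and only name the libraries. The main limits are the 3 libraries per group, unknown read numbers behind each FPKM, exact zeros, and loci that join genes.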
